A study of Homo sapiens with 48 samples.

Results

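Collagens are triple-helical proteins of the extracellular matrix, each built from 3 chains that come from the same gene or from several. A list of 41 genes for collagen chains, running from COL1A1 to COL28A1, was set for this study. It does not hold every collagen gene, so sums and rankings below are over these 41 alone. The listed genes were taken from the gene count table by symbol, and 41 of 41 were found among its 35535 genes. They fall into 11 fibrillar chains, 6 chains of type IV collagen of basement membranes, 3 chains of the beaded type VI collagen and 10 chains of FACIT collagens, which attach to the surface of fibrils. The other members are the type VII chain of anchoring fibrils, 3 chains of hexagonal networks, 2 multiplexins, 3 transmembrane chains, and COL26A1 and COL28A1.

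The samples came from 8 established lines of human bladder cancer, namely 639V, VMCUB, TCCSUP, T24, SW780, KU1919, HT1376 and HT1197. Each line received either DMSO, the vehicle, or 250 nM CPI-0209, an inhibitor of the histone methyltransferase EZH2, and treatment lasted 4 days. Each of the 16 groups had 3 libraries, 48 in all. Every group is 1 established line in culture, so nothing here includes the stroma of a tumour, and nothing in the labels says that the 3 libraries of a group came from different cultures. The p-values of tests on single libraries therefore cover the spread between libraries alone, which may be technical. The tests of a response shared by the lines and of the ratios of partner chains used summed or averaged values per line. Their p-values cover the spread between the 8 lines.

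EZH2 is the enzyme of Polycomb repressive complex 2. It places a repressive methyl mark on histone H3, and many genes marked in this way have promoters rich in CpG dinucleotides. Fibroblasts are the main source of types I, III, V and VI collagen in the bladder wall. Urothelial cells rest on a basement membrane of type IV collagen, which anchoring fibrils of type VII collagen tie to the tissue beneath. A type I molecule holds COL1A1 and COL1A2 chains, a type III molecule holds COL3A1 alone, the most widespread type IV molecule joins COL4A1 and COL4A2, and type VI needs COL6A1, COL6A2 and one more chain such as COL6A3.

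Several chains are encoded in pairs. COL4A1 (chromosome 13, 110148963 to 110307233) and COL4A2 (chromosome 13, 110305812 to 110513209) point away from each other, and so do COL4A3 and COL4A4 on chromosome 2 and COL4A5 and COL4A6 on chromosome X. COL6A1 and COL6A2 lie on the same strand of chromosome 21 with 93046 bases between them. These coordinates are those of GENCODE 29 on GRCh38. COL4A1 and COL4A2 overlap in that annotation, COL9A3 overlaps TCFL5 and COL18A1 overlaps SLC19A1, and reads from the shared stretches are uncertain, because any use of strand in the counting is not stated in the labels.

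The sequences below show how differently the chains that the results turn on begin. They come from RefSeq on GRCh38.p14, where 30 of the 41 members matched, are written 5′ to 3′ and have every CpG in capitals. The first is the stretch between the start sites of COL4A1 and COL4A2 on the plus strand, chr13:110307158-110307283, which the pair shares. The others are the 250 bases before the start site of COL4A5 (chrX:108439588-108439837, plus strand), COL6A2 (chr21:46097862-46098111, plus strand), COL6A3 (chr2:237414165-237414414, minus strand) and COL15A1 (chr9:98943657-98943906, plus strand), each on the strand of its gene.
COL4A1-COL4A2: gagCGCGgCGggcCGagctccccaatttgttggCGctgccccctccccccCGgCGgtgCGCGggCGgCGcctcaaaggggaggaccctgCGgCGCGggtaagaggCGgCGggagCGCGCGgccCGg
COL4A5: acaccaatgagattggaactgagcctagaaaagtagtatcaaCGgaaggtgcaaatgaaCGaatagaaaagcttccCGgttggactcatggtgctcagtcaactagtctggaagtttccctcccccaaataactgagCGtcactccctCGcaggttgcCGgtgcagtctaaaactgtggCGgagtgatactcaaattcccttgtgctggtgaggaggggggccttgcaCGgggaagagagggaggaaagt
COL6A2: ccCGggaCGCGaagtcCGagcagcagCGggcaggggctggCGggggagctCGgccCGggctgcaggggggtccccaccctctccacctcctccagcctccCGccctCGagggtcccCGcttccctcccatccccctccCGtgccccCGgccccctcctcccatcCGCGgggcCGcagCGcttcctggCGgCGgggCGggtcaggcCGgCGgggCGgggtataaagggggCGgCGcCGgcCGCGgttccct
COL6A3: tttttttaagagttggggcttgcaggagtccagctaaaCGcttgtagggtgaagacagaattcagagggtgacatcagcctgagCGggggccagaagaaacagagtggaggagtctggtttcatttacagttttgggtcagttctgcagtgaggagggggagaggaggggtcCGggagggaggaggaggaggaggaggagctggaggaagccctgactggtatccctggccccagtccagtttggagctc
COL15A1: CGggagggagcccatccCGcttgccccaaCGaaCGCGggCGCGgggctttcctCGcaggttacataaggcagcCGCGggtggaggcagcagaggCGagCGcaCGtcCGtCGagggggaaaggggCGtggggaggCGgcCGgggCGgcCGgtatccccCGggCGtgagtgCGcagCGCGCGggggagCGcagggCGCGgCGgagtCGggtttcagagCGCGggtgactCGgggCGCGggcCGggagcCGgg

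The shared stretch of 126 bases held 20 CpG. The 250 bases held 8 CpG at COL4A5, 28 at COL6A2, 3 at COL6A3 and 38 at COL15A1, so the type VI partners COL6A2 and COL6A3 differed widely. The median was 16 CpG over the 30 matched members and 11 over 35116 promoters, and the GC content was 65.4% against 58.0%. The motif GGGCGG, searched on both strands, was in 17 of the 30 members and in 42.6% of all promoters, CCAAT in 8 members and 32.0%, and TATAAA in 3 members and 10.7%. A match is a run of letters and not a site. GGGCGG holds a CpG of its own.

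Library totals ranged from 26481418 to 50916911 counts. Levels are given as CPM, counts scaled to a common library size, with sizes set by TMM over all 48 libraries, and calls are those of edgeR's quasi-likelihood test at a Benjamini-Hochberg adjusted p of 0.05 over all genes tested. EZH2 mRNA did not pass this test in the response shared by the lines, with a log2 fold change of 0.03 ± 0.03 (SE; adjusted p = 0.513). Replicate 1 of CPI-0209 in KU1919 and replicate 3 of CPI-0209 in T24 stood apart from the other libraries of their groups. Leaving out the first raised the number of members called in KU1919 from 14 to 26, and leaving out the second raised it in T24 from 7 to 13. Replicate 2 of DMSO in T24 was also low, with a summed CPM of 1482 for the members beside 1820 and 1818. Leaving out that DMSO library instead gave 6 higher calls in T24. The epithelial keratin genes KRT8 and KRT18 were at 124 CPM or above in DMSO in every line, whereas EPCAM was at 0.936 CPM and CDH1 at 0.731 CPM in 639V. The urothelial gene UPK3A had 0 counts in DMSO in KU1919, 639V and VMCUB, and it passed 1 CPM in SW780 alone (1.22 CPM). Of the 6 urothelial genes listed, 3 were at 1 CPM or above in DMSO in KU1919, 2 in 639V and 5 in VMCUB.

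The lines differed first in how much collagen mRNA they held. In DMSO, the summed CPM of the 41 members was 8858 ± 761 (SD, n = 3) in TCCSUP and 4957 ± 88.1 in HT1197. It was 2430 ± 240 in HT1376, 1707 ± 195 in T24, 1157 ± 37.6 in SW780 and 1068 ± 17.0 in KU1919, and 835.5 ± 178 in VMCUB and 473.4 ± 15.6 in 639V. The libraries of lines next to each other in this order did not overlap, and the closest were the highest of VMCUB, at 1026, and the lowest of KU1919, at 1051.

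Which chains led also differed. Levels per kb were taken over all annotated exons of a gene joined, and the order of the chains depends on that length. On this scale COL1A1 stood at 423 ± 45.7 CPM per kb and COL1A2 at 243 ± 27.9 in TCCSUP. These were 47.8% and 27.5% of the collagen total per kb there. In HT1197 the leading chains were COL6A1 at 87.9 ± 2.17, COL7A1 at 84.6 ± 1.76 and COL4A2 at 83.3 ± 0.929 CPM per kb. The length used was 5343 bases for COL6A1 and 19293 for COL4A2. Without division by length, COL4A2 stood above COL6A1 in HT1197, at 1606 and 470 CPM. COL7A1, the anchoring fibril chain, or COL12A1, a FACIT chain of fibril surfaces, led in 3 lines: COL12A1 at 86.4 ± 17.1 in HT1376 and 34.9 ± 1.91 in SW780, and COL7A1 at 34.9 ± 7.34 in VMCUB. COL6A1 led at 39.8 ± 6.77 in T24 and 20.7 ± 1.00 in 639V, and COL4A2 led at 16.1 ± 0.263 in KU1919. On this scale a line could thus be led by a fibrillar, a basement membrane, a beaded, a FACIT or an anchoring chain.

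All 37 members that passed the filter on low counts differed in DMSO level between lines, where 97.5% of all genes tested did, so this count says nothing particular of collagens. The chains of types I and IV show how wide the ranges were. COL1A1 had a mean of 4153 CPM in TCCSUP and 3.39 CPM in T24, COL1A2 2710 CPM in TCCSUP and 1.03 CPM in 639V, and COL4A2 1606 CPM in HT1197 and 0.709 CPM in 639V. In all, 7 members had at least 1 CPM in DMSO in all 8 lines, and 8 members in none of them.

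TCCSUP, the line with the most type I collagen mRNA, also stood apart in the fibroblast marker list. All 7 fibroblast genes were at 1 CPM or above there, and their summed level was 1543 to 1723 CPM in its DMSO libraries, with LUM at 755 CPM and DCN at 324 CPM. In the other lines the sum was lowest in HT1376, at 2.28 to 2.9 CPM, and second highest in 639V, at 291 to 298 CPM. THY1 gave most of the sum in 639V, at 287 CPM, and no other gene of the list was above 4.49 CPM there. Of the 7 mesenchymal genes listed, all 7 were at 1 CPM or above in DMSO in TCCSUP and 5 in 639V. VIM, a filament gene, was at 2.37 CPM in TCCSUP and 537 CPM in 639V, and ZEB1 at 22.2 and 43.3 CPM. The others were higher in TCCSUP: FN1 at 1580 and 41.1 CPM, CDH2 at 246 and 113, and ZEB2 at 57.2 and 4.92. TWIST1 was at 31.8 and 0.0452 CPM and SNAI2 at 23.7 and 0.648. TCCSUP did not stand apart in these lists alone. The sum of the 5 endothelial genes listed was 42.6 to 45.6 CPM in its DMSO libraries and at most 8.88 CPM in any other line. That of the 6 leukocyte genes listed was 77.1 to 97.2 CPM, above every line but KU1919, at 102 to 105 CPM. The part of these markers in the collagen levels was not tested.

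**Figure D1:**
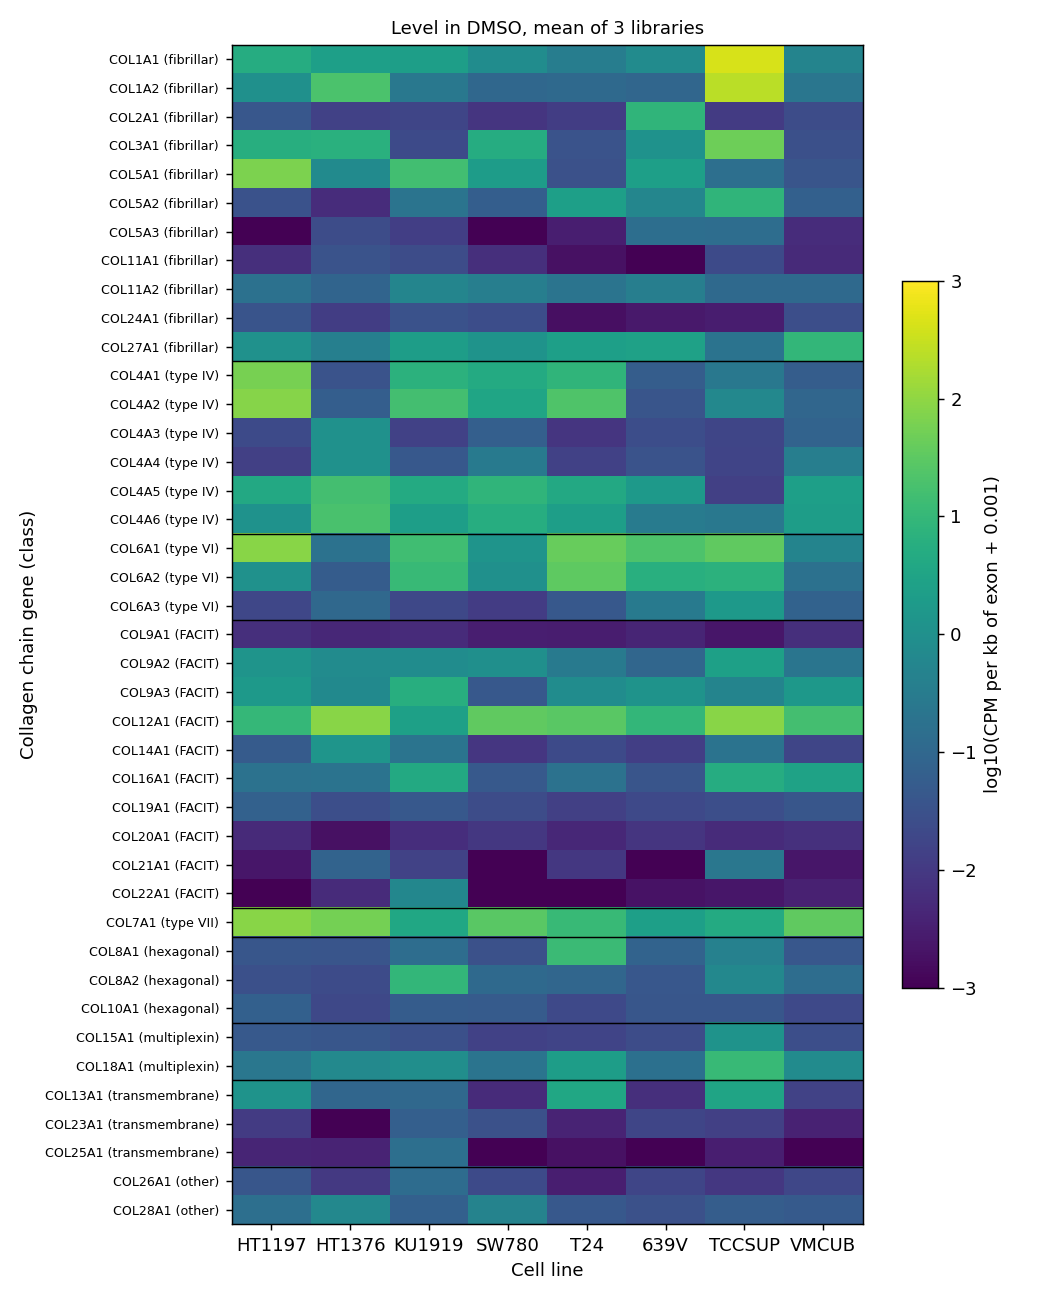
Level of the 41 collagen chain genes in DMSO in the 8 lines, as log10 of CPM per kb of exon plus 0.001, mean of 3 libraries per line, with lines between the classes. COL1A1 and COL1A2 are brightest in TCCSUP, and COL7A1 and COL12A1 are bright in most lines.

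CPI-0209 raised more collagen genes than it lowered in every line. Over the 8 lines there were 238 tests of members, of which 128 (53.8%) were called higher and 15 (6.3%) lower, and over all genes the shares were 18.8% and 13.8%. By line, 24 of 32 tested members rose and 4 fell in TCCSUP, where 48.7% of all genes tested were called in either direction. In 639V 21 of 29 rose and 3 fell (39.2% of all genes), in SW780 20 of 29 rose and 2 fell (61.1%), and in HT1376 17 of 31 rose and 4 fell (39.7%). In KU1919 14 of 35 rose and 0 fell (11.7%), in VMCUB 13 of 28 rose and 1 fell (27.4%), in HT1197 12 of 27 rose and 1 fell (19.6%), and in T24 7 of 27 rose and 0 fell (10.3%). In each line the share of tested members that rose exceeded the share of all genes that rose, which ran from 9.30% in KU1919 and 9.37% in T24 to 30.8% in SW780. The share of all genes that fell was 0.930% in T24, 2.40% in KU1919, 7.80% in HT1197, 11.0% in VMCUB, 16% in HT1376, 17.1% in 639V, 23.0% in TCCSUP and 30.3% in SW780. In KU1919 and T24, where 0 members fell by edgeR, DESeq2 also called 0 lower, and 0 were lower at an unadjusted p under 0.05 by either tool. Without DMSO replicate 1, 2 or 3, the count in KU1919 was 7, 8 and 7, and in a fit of all 48 libraries it was 7 in HT1197 and 17 in T24. VMCUB gave 10 higher and 1 lower, 16 and 3, and 15 and 1 without replicate 1, 2 and 3 of DMSO. Its calls over all genes went from 4238 to 2010, 5954 and 7678 in the same fits.

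The median log2 fold change of the tested members lay between 0.30 in HT1197 and 0.93 in SW780, beside medians of all genes between -0.012 and 0.041. A member that was high only after treatment passed the filter because of that group. These medians and the counts of calls therefore describe the members that were measured and not all 41. Altogether 36 members rose in at least 1 line, 10 fell in at least 1, and 9 did both. COL20A1 was tested in no line. Without TMM, on library totals alone, the median of all genes moved to 0.224 in SW780 and 0.13 in VMCUB, and no member called in any line changed its sign.

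**Figure D2:**
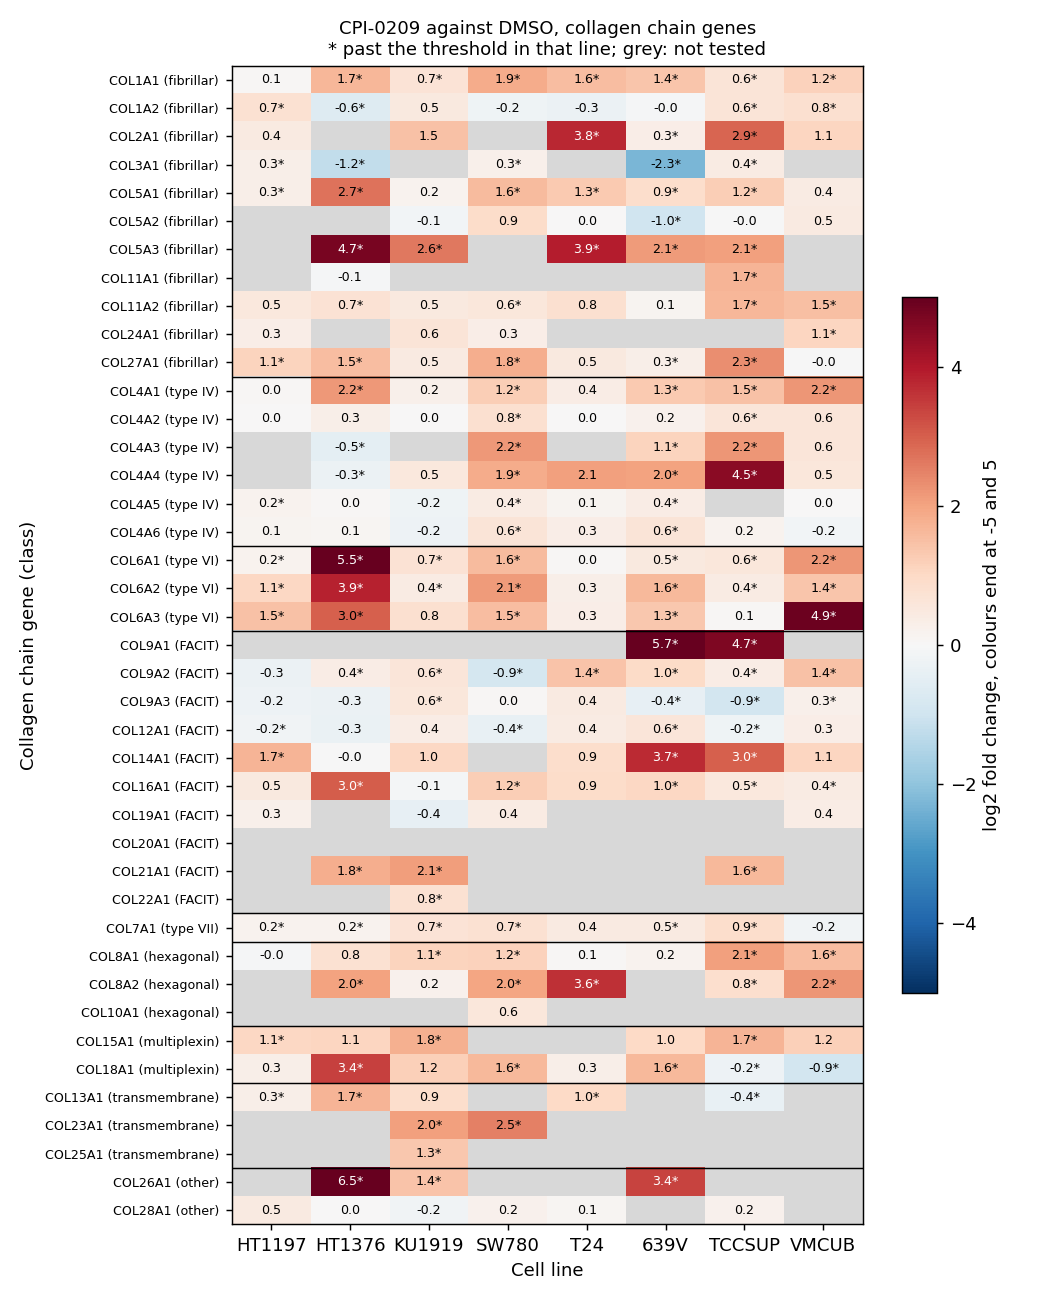
Log2 fold change of CPI-0209 against DMSO for the 41 collagen chain genes in the 8 lines, with colour from -5 to 5, the value in each cell, an asterisk for a call and grey for a gene that was not tested. Most calls are higher, and the 15 lower calls include COL3A1 in HT1376 and 639V.

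In the response shared by the lines, tested on 16 sums of counts with the line as a term, 13 of 37 tested members rose and 0 fell, beside 11.7% of all genes called, 7.31% higher and 4.41% lower. By edgeR and by DESeq2 alike, 0 members were called lower and 0 had a lower value at an unadjusted p under 0.05. The median log2 fold change was 0.95 for the members and -0.006 for all genes. The 13 were COL5A3, COL15A1, COL21A1, COL1A1, COL23A1, COL11A2, COL5A1, COL27A1, COL4A1, COL6A2, COL14A1, COL8A2 and COL26A1, so 5 of them are fibrillar chains. The count depended on the lines: it was 4 without SW780, T24 or TCCSUP, 7 without 639V or VMCUB, and 8 without HT1376 or KU1919. It was 22 with DESeq2 and 7 with no filter on low counts. COL4A1 lost its call without HT1376, SW780, T24, 639V, TCCSUP or VMCUB (adjusted p between 0.058 and 0.0856). COL6A2 lost its call without any line but HT1376, COL11A2 without HT1376, SW780, T24, TCCSUP or VMCUB, and COL23A1 without T24 or TCCSUP. COL14A1 lost its call without any line but HT1376, COL27A1 without any line but VMCUB, and COL8A2 without any line but KU1919 or 639V. COL5A1 lost it without SW780, T24, 639V, TCCSUP or VMCUB, and so did COL26A1. COL23A1 was not tested without KU1919 or SW780. With no filter the 6 lost calls were those of COL4A1, COL5A1, COL6A2, COL8A2, COL14A1 and COL27A1. Among the 6 members with the smallest p, COL5A3, COL15A1 and COL1A1 were called whichever line was left out. COL21A1 was called in each such fit that tested it, and it was not tested without HT1376, KU1919 or TCCSUP.

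The responses differed between lines for 35 of 40 tested members by the F test of 7 interaction terms, which called 58.7% of all genes. The members not called were COL5A2, COL10A1, COL15A1, COL19A1 and COL28A1. The count was between 29 and 36 under the alternatives tried. The test can miss a small change in a single line, so the lack of a call does not show that these 5 responded alike.

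Fibrillar chains, which form the banded fibrils of connective tissue, gave 38 higher and 4 lower calls in 68 tests, with a median log2 fold change of 0.64. Over all genes and lines, 18.8% of tests were higher and 13.8% lower, and the counts of each class below stand beside these shares. COL1A1 (chromosome 17, 50183289 to 50201632) rose in 7 of 8 lines. In SW780 its 3 DMSO libraries held 9.07, 7.31 and 8.49 CPM and its 3 CPI-0209 libraries 30.2, 29.5 and 31.1 CPM, a log2 fold change of 1.85 ± 0.07 (SE; edgeR adjusted p = 1.67e-13). In HT1376 it went from 24.1, 23.0 and 23.8 CPM to 74.3, 71.6 and 75.7 CPM, and in 639V from 7.35, 7.41 and 7.75 CPM to 19.0, 21.2 and 19.4 CPM. The groups were far apart in these lines, with log2 fold changes of 1.67 ± 0.05 in HT1376 and 1.40 ± 0.06 in 639V.

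In TCCSUP, where COL1A1 was already the leading chain, the libraries went from 4670, 3867 and 3922 CPM to 6286, 6412 and 6129 CPM, a log2 fold change of 0.63 ± 0.08. In VMCUB they went from 5.27, 4.38 and 5.44 CPM to 10.2, 10.8 and 11.6 CPM, and in T24 from 3.80, 2.89 and 3.46 CPM to 11.1, 11.0 and 7.29 CPM. The groups did not overlap, but replicate 3 of CPI-0209 in T24 was lower than the other treated libraries. KU1919 went from 23.0, 23.4 and 21.9 CPM to 32.4, 36.1 and 39.7 CPM (adjusted p = 0.00808 by edgeR), a call that was lost without replicate 1 or replicate 3 of DMSO (adjusted p = 0.0506 for each). In HT1197 the groups overlapped, at 47.9, 50.7 and 50.9 CPM and 49.4, 51.5 and 54.6 CPM.

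COL1A2, which encodes the partner chain of type I collagen, rose in 3 lines and fell in 1. It rose in HT1197, from 10.9, 11.7 and 11.0 CPM to 17.6, 18.6 and 19.4 CPM, in TCCSUP with a log2 fold change of 0.64 ± 0.08 and in VMCUB with 0.82 ± 0.11. In HT1376 it fell from 217, 226 and 218 CPM to 151, 130 and 133 CPM, a log2 fold change of -0.65 ± 0.07. The other 4 lines gave no call, with values of -0.30 in T24, -0.20 in SW780, -0.04 in 639V and 0.50 in KU1919. HT1376 was the line in which both chains of type I collagen moved past the threshold in opposite directions.

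COL3A1 (chromosome 2, 188974320 to 189012746), which forms type III collagen by itself, was tested in 5 lines and was called in each. In 639V it fell from 7.09, 7.84 and 8.40 CPM to 1.60, 1.66 and 1.49 CPM, a log2 fold change of -2.29 ± 0.11 (edgeR adjusted p = 7.68e-10). In HT1376 it fell from 42.6, 44.3 and 44.2 CPM to 18.3, 17.8 and 18.5 CPM. It rose by smaller amounts in TCCSUP (0.40 ± 0.08), HT1197 (0.30 ± 0.05) and SW780 (0.26 ± 0.06), and the difference between lines was called with an adjusted p of 6.72e-21. COL3A1 and COL5A2 lie tail to tail on chromosome 2 with 19149 bases between them. COL5A2, a chain of type V collagen, also fell in 639V, from 4.32, 4.20 and 4.35 CPM to 2.97, 1.68 and 1.80 CPM, and was called in no other line.

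**Figure D3:**
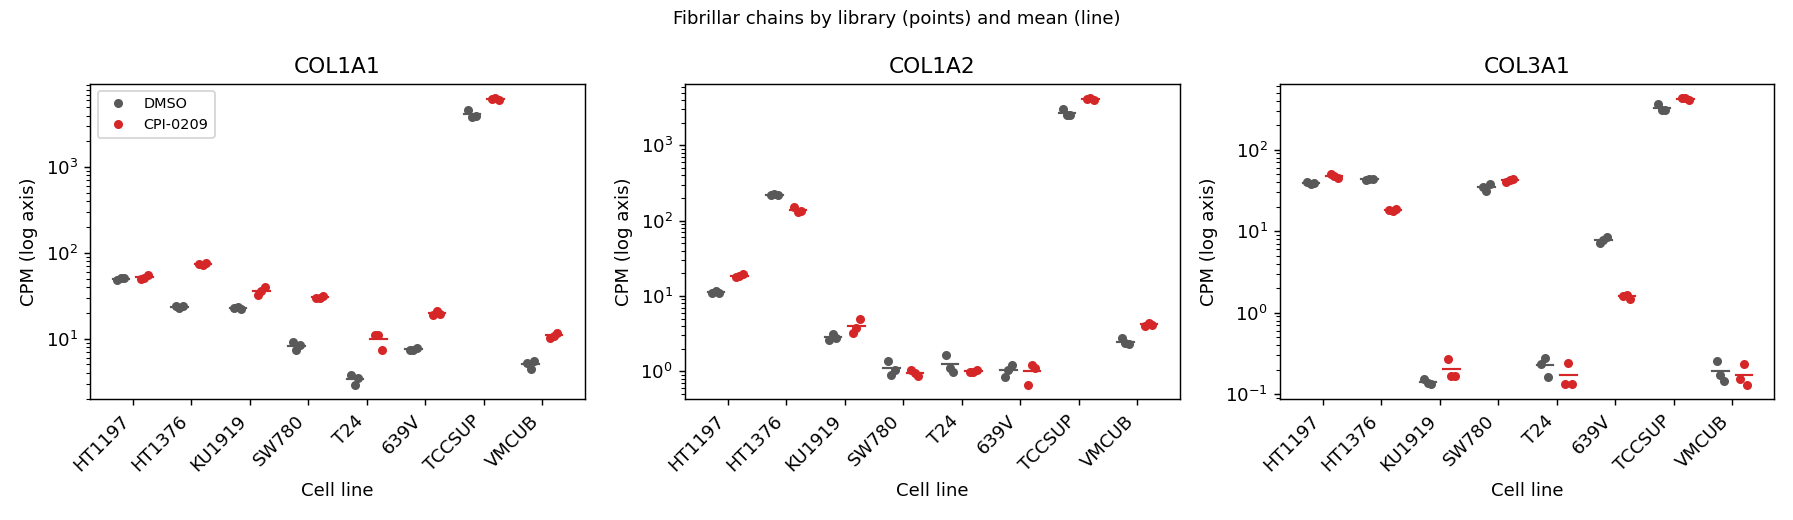
CPM on a log axis of COL1A1, COL1A2 and COL3A1 in each library (points) with the mean of 3 libraries (line), DMSO in grey and CPI-0209 in red, for the 8 lines. COL1A1 lies higher after CPI-0209 in 7 lines, whereas COL1A2 lies lower in HT1376 and COL3A1 lower in HT1376 and 639V.

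The type V chains COL5A1 and COL5A3, which regulate fibril diameter, moved upwards. COL5A1 (chromosome 9, 134641774 to 134844843) rose in 6 of 8 lines. It went from 8.45, 8.87 and 8.03 CPM to 56.3, 52.7 and 55.7 CPM in HT1376 (log2 fold change 2.73 ± 0.06), from 24.7, 22.4 and 23.5 CPM to 67.8, 71.7 and 74.4 CPM in SW780 (1.58 ± 0.05), and from 27.8, 25.9 and 27.2 CPM to 50.6, 50.6 and 49.6 CPM in 639V (0.90 ± 0.05). HT1197, with the highest DMSO level of the gene at 742 ± 23.4 CPM, rose by 0.31 ± 0.04. The call in T24 (adjusted p = 0.0416 by edgeR) was lost with the replicate block, without any DMSO library and without replicate 1 or 2 of CPI-0209. KU1919 (0.17) and VMCUB (0.40) gave no call.

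COL5A3 was tested in 5 lines and rose in all 5. In HT1376, KU1919 and T24 it held 18, 11 and 2 counts over the DMSO libraries. It passed the filter there through the treated libraries, so the tally of tested lines is not separate evidence of a rise. In 639V it went from 1.06, 0.965 and 1.02 CPM to 4.34, 4.81 and 4.06 CPM (log2 fold change 2.11 ± 0.13), and in HT1376 from 0.175, 0.0563 and 0.247 CPM to 4.49, 4.19 and 4.12 CPM (4.73 ± 0.28). In TCCSUP it went from 0.931, 0.941 and 0.922 CPM to 3.44, 4.18 and 3.86 CPM. The groups were apart in each. In KU1919 it went from 0.0828 to 0.569 CPM on average, and in T24 from 2 to 38 counts over 3 libraries, a ratio of 17.4 with a 95% counting interval of 4.49 to 149. The call in KU1919 was lost with the replicate block and without replicate 1 of DMSO or replicate 2 or 3 of CPI-0209, and that in T24 without replicate 2 of CPI-0209. In the lines where it was not tested, HT1197 and SW780 held 0 counts in DMSO and 5 and 16 counts after CPI-0209, and VMCUB 4 and 15 counts. Counting intervals cover counting error only.

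COL27A1, a fibrillar chain of cartilage and other tissues, rose in 5 of 8 lines. It went from 15.5, 14.7 and 15.4 CPM to 31.2, 33.2 and 32.0 CPM in HT1197, and from 18.8, 15.5 and 16.6 CPM to 59.7, 59.8 and 60.6 CPM in SW780. VMCUB, with the highest DMSO level at 129 CPM, gave a log2 fold change of -0.03 and no call. COL2A1, the main chain of cartilage, rose from 0.150, 0.0462 and 0.0327 CPM to 1.39, 1.17 and 0.845 CPM in T24 and by 2.91 ± 0.45 in TCCSUP. In 639V, where it stood at 55.9 ± 3.09 CPM in DMSO, it rose by 0.31 ± 0.05. The calls of COL27A1 and COL2A1 in 639V were lost in the fit of all 48 libraries.

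COL11A2 rose in HT1376, SW780, TCCSUP and VMCUB, with log2 fold changes between 0.57 and 1.67. COL11A1 rose in TCCSUP (1.71 ± 0.35) and COL24A1 in VMCUB (1.08 ± 0.31), from DMSO means of 0.192 and 0.252 CPM. The call of COL11A2 in HT1376 was lost with DESeq2, with no filter, with the replicate block and without any 1 library except replicate 3 of CPI-0209. That of COL24A1 was lost under the same 3 settings and without any 1 library except replicate 2 of DMSO.

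The 6 type IV chains, the network of basement membranes, gave 18 higher and 2 lower calls in 43 tests, with a median of 0.38. COL4A1 rose in 5 of 8 lines. In VMCUB it went from 0.825, 1.08 and 0.708 CPM to 3.51, 4.14 and 4.08 CPM (log2 fold change 2.22 ± 0.17, edgeR adjusted p = 0.000281), and in HT1376 from 0.426, 0.366 and 0.715 CPM to 2.07, 2.38 and 2.28 CPM (2.18 ± 0.24). In TCCSUP it went from 4.09, 3.62 and 3.58 CPM to 10.5, 9.92 and 10.2 CPM (1.48 ± 0.09). These lines had low levels of the chain. In 639V it went from 0.843, 0.876 and 0.885 CPM to 2.22, 2.06 and 2.20 CPM, and in SW780 from 73.0, 67.1 and 67.9 CPM to 157, 167 and 172 CPM.

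The lines with the highest COL4A1 levels gave no call. HT1197 held 871, 841 and 886 CPM in DMSO and 879, 905 and 856 CPM after CPI-0209. KU1919 held 106, 104 and 102 CPM and then 97.9, 132 and 141 CPM, and T24 127, 107 and 134 CPM and then 174, 168 and 128 CPM. The low treated library was in both cases the one that stood apart. Without it COL4A1 was called in KU1919 (log2 fold change 0.42, adjusted p = 1.18e-05) and in T24 (0.52, adjusted p = 0.0296).

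COL4A2 rose in 2 lines. In SW780 it went from 69.7, 63.0 and 63.6 CPM to 110, 115 and 119 CPM (0.79 ± 0.05), and in TCCSUP from 11.6, 13.1 and 11.0 CPM to 18.2, 18.0 and 16.8 CPM (0.60 ± 0.08). In the other 6 lines the groups overlapped, with log2 fold changes from 0.02 in KU1919 to 0.61 in VMCUB.

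The pair was also compared within libraries. The log2 ratio of COL4A1 to COL4A2 counts was higher after CPI-0209 in 8 of 8 lines, by 0.80 on average (SD 0.68 over lines), from 0.01 in HT1197 to 1.88 in HT1376. In HT1376 the ratio went from -1.17, -1.27 and -1.26 to 0.47, 1.10 and 0.38, and in VMCUB from -0.99, -1.05 and -1.15 to 0.96, 0.60 and 0.18. The libraries of the 2 treatments overlapped in HT1197 and not in the other 7 lines. A two-sided exact sign-flip permutation test over the 8 lines gave p = 0.00781, the smallest it can give, and 0.0391 after adjustment over the 5 partner pairs compared. With any line left out the mean was between 0.65 and 0.92, and p was 0.0156, the smallest that 7 lines allow. This became 0.0781 after adjustment, so the call was lost whichever line was left out, and 7 lines cannot pass the threshold for 1 pair alone. This comparison of pairs was added after the values had been seen. The 2 genes overlap in the annotation, so reads counted for the wrong gene cannot be told apart here.

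The other pairs gave no call. The ratio of COL1A1 to COL1A2 moved by 0.94 on average (SD 1.11; exact p = 0.0781, adjusted 0.13), from -0.67 in HT1197 to 2.32 in HT1376. COL4A3 over COL4A4 moved by -0.73 (SD 1.01; exact p = 0.0703, adjusted 0.13), COL4A5 over COL4A6 by 0.01 (SD 0.26) and COL6A1 over COL6A2 by -0.03 (SD 0.85; both adjusted p = 0.93 by the exact permutation test). Within lines COL4A5 over COL4A6 moved by -0.26 to 0.52, while in DMSO the ratio itself ran from -3.90 in TCCSUP to 2.76 in 639V.

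**Figure D4:**
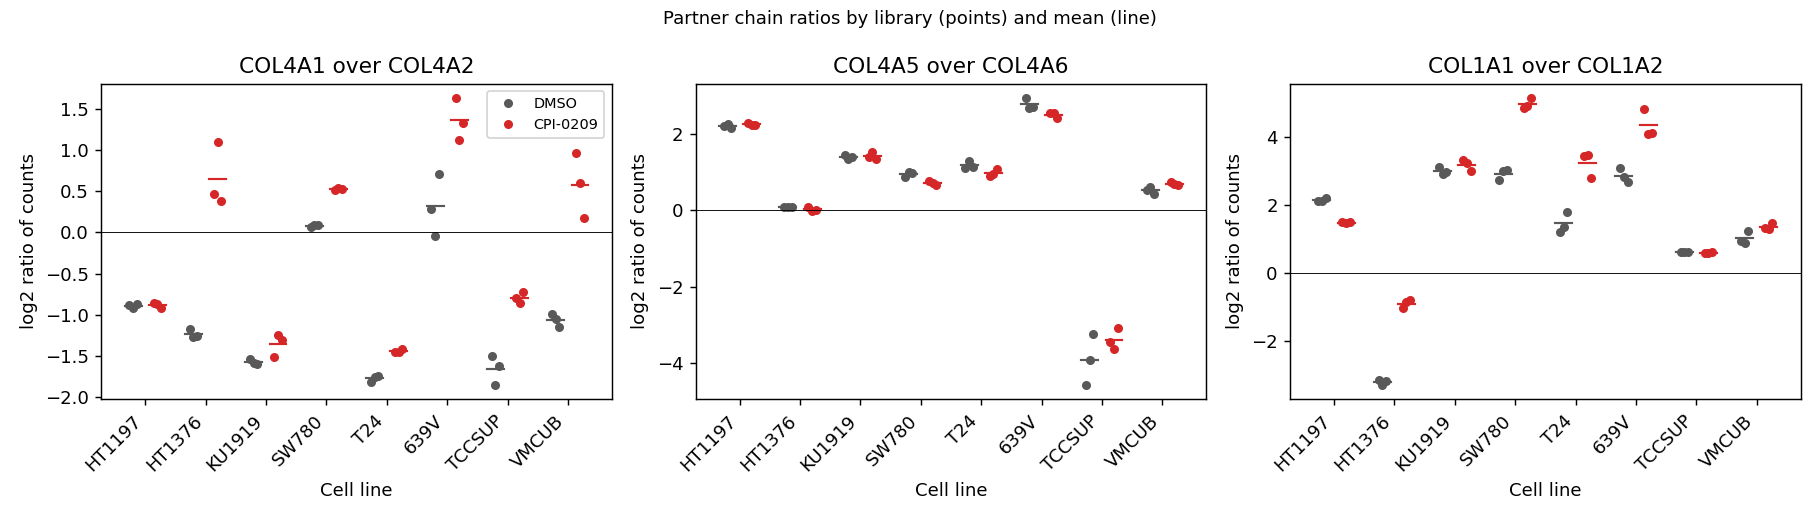
Log2 ratio of counts of COL4A1 to COL4A2, COL4A5 to COL4A6 and COL1A1 to COL1A2 in each library (points) with the mean of 3 libraries (line), DMSO in grey and CPI-0209 in red. The COL4A1 to COL4A2 ratio is higher after CPI-0209 in 8 lines by 0.01 to 1.88, whereas that of COL4A5 to COL4A6 moves by 0.52 at most.

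COL4A3 and COL4A4, chains of specialised basement membranes, rose together in SW780, 639V and TCCSUP and fell together in HT1376, the line with their highest DMSO levels. In TCCSUP, COL4A4 went from 0.150, 0.177 and 0.158 CPM to 3.33, 4.07 and 3.53 CPM (log2 fold change 4.50 ± 0.22), with treated libraries far above DMSO. COL4A3 went from 0.589 to 2.75 CPM on average in SW780 (2.18 ± 0.16). In HT1376 COL4A3 fell from 8.83, 10.3 and 10.4 CPM to 6.80, 6.68 and 7.19 CPM (-0.48 ± 0.09) and COL4A4 with a log2 fold change of -0.30 ± 0.10. That call of COL4A4 was lost with the replicate block, in the fit of all 48 libraries and without any 1 library except replicate 1 of DMSO. The call of COL4A3 in 639V was lost with DESeq2. COL4A5 and COL4A6 moved by 0.65 at most, and both rose in SW780 and 639V. COL4A6 was called lower in VMCUB without replicate 2 of DMSO, and higher in T24 without replicate 3 of CPI-0209. COL4A5 also rose in HT1197 (0.19 ± 0.05), a call lost in the fit of all 48 libraries.

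Of the 14 other basement membrane genes, the laminin, nidogen, perlecan and agrin genes, 0 were called in the shared response by edgeR or DESeq2, and 2 were higher and 0 lower at an unadjusted p under 0.05 by each. Their median log2 fold change there was 0.09. In SW780 8 of 14 rose and 3 fell, beside 30.8% of all genes higher and 30.3% lower, and in HT1376 6 rose and 3 fell, beside 23.7% and 16%. In KU1919 and T24 0 were called in either direction by edgeR. At an unadjusted p under 0.05, edgeR gave 2 higher and 4 lower in KU1919 and 1 higher and 2 lower in T24. DESeq2 called 2 higher and 1 lower in KU1919, and 0 higher and 1 lower in T24.

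The 3 type VI chains, which form beaded filaments around cells, gave 19 higher and 0 lower calls in 24 tests, with a median log2 fold change of 1.19. COL6A1 (chromosome 21, 45981737 to 46005050) rose in 7 of 8 lines. In HT1376 it went from 1.08, 0.760 and 1.02 CPM to 42.2, 43.0 and 44.2 CPM, a log2 fold change of 5.52 ± 0.10 (edgeR adjusted p = 3.86e-09). In VMCUB it went from 3.11, 2.33 and 2.69 CPM to 11.7, 12.3 and 12.0 CPM, and in SW780 from 7.19, 6.56 and 6.67 CPM to 20.3, 19.9 and 21.5 CPM. These are the lines with the lowest DMSO levels of the gene.

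Where COL6A1 was high in DMSO the change was smaller. KU1919 went from 75.0, 78.0 and 77.7 CPM to 116, 122 and 144 CPM (0.72 ± 0.11), TCCSUP from 178, 184 and 192 CPM to 269, 278 and 258 CPM (0.57 ± 0.05), and 639V from 116, 111 and 105 CPM to 150, 162 and 149 CPM (0.47 ± 0.05). HT1197 went from 469, 459 and 482 CPM to 527, 541 and 522 CPM (0.19 ± 0.03, edgeR adjusted p = 0.000514), a call that was lost in a fit of all 48 libraries (adjusted p = 0.398). T24 held 239, 171 and 228 CPM and then 243, 237 and 169 CPM, and the groups overlapped. The shared response of COL6A1 was 1.17 ± 0.53 and missed the threshold (adjusted p = 0.154 by edgeR).

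COL6A2 (chromosome 21, 46098097 to 46132849) rose in the same 7 lines as COL6A1. It went from 34.9, 33.0 and 31.1 CPM to 98.1, 111 and 97.8 CPM in 639V (1.63 ± 0.06), from 5.78, 4.84 and 5.88 CPM to 24.9, 22.9 and 25.7 CPM in SW780 (2.13 ± 0.08), and from 6.04, 5.34 and 5.98 CPM to 11.3, 12.9 and 11.3 CPM in HT1197 (1.05 ± 0.09). The treated libraries lay far above DMSO in these 3 lines. In HT1376 it went from 0.150, 0.113 and 0.605 CPM to 3.73, 4.79 and 3.86 CPM, with replicate 3 of DMSO above the other untreated libraries. KU1919 went from 57.6, 63.4 and 59.9 CPM to 86.2, 73.7 and 84.5 CPM (0.43 ± 0.09, edgeR adjusted p = 0.0171). That call was lost without replicate 1, 2 or 3 of DMSO or replicate 3 of CPI-0209, with adjusted p between 0.0527 and 0.114, and with the replicate block (0.0548). VMCUB rose by 1.39 ± 0.22, TCCSUP by 0.41 ± 0.06, and T24 gave no call at 0.31.

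COL6A3, the chain that completes the common type VI molecule, rose in 5 of 8 lines. In VMCUB it went from 0.984, 2.59 and 0.928 CPM to 42.8, 43.0 and 42.5 CPM (log2 fold change 4.89 ± 0.32), and in HT1376 from 2.01, 2.31 and 1.98 CPM to 16.9, 14.5 and 17.4 CPM (2.99 ± 0.11). In TCCSUP, which had the highest DMSO level, it held 31.9, 32.0 and 32.1 CPM and then 34.2, 34.3 and 29.8 CPM, and the groups overlapped. The summed CPM of the 3 chains in HT1376 went from 3.339 ± 0.228 to 63.56 ± 1.70 (SD, n = 3), and in VMCUB from 5.13 ± 0.852 to 57.08 ± 0.64. COL6A1 contributed most of the treated sum in HT1376 and COL6A3 most of it in VMCUB.

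**Figure D5:**
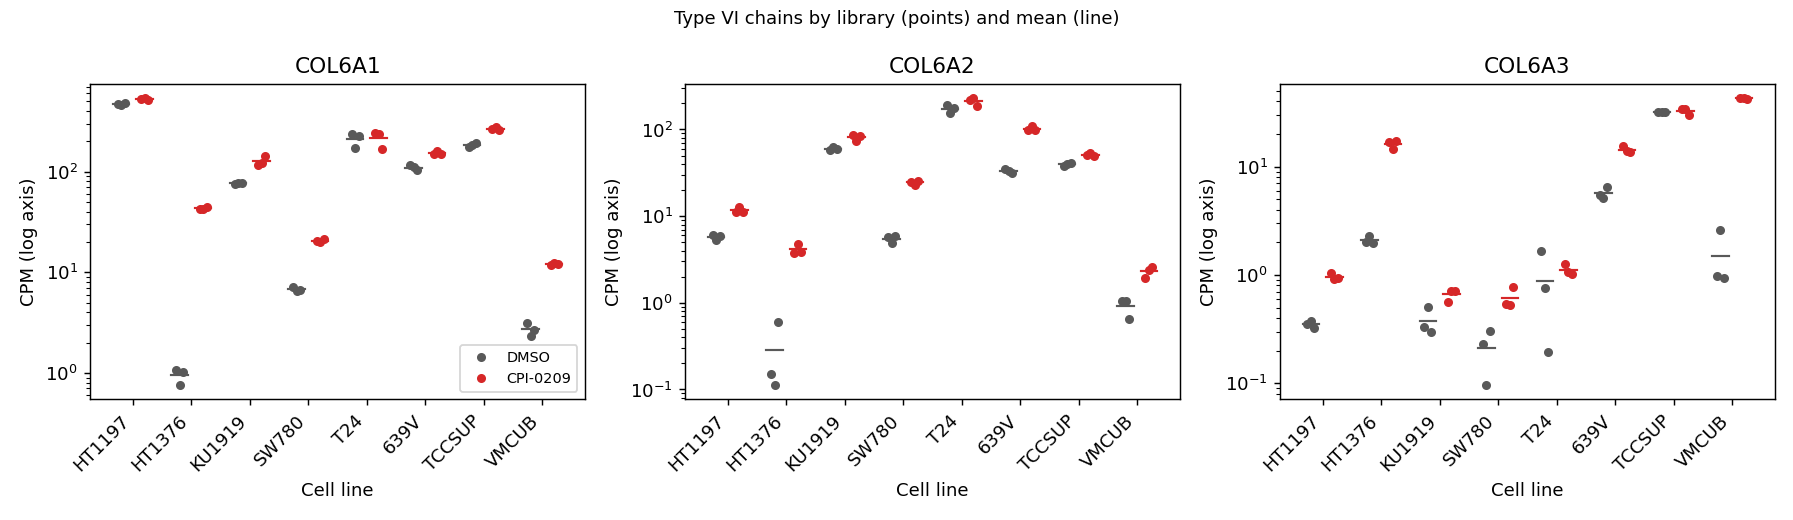
CPM on a log axis of COL6A1, COL6A2 and COL6A3 in each library (points) with the mean of 3 libraries (line), DMSO in grey and CPI-0209 in red, for the 8 lines. HT1376 shows the widest gap for COL6A1, from a mean of 0.952 to 43.2 CPM, and VMCUB the widest for COL6A3, from 1.5 to 42.8 CPM.

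The sum of the fibroblast marker list was also higher after CPI-0209 in 6 lines, though not every gene of the list rose in each. Its sum went from 2.28 to 2.9 CPM in DMSO to 9.98 to 11.2 CPM after CPI-0209 in HT1376, from 9.22 to 10.8 CPM to 25.5 to 27.6 CPM in T24, and from 19.9 to 20.3 CPM to 39.9 to 47.4 CPM in KU1919. In VMCUB it was 4.6 to 5.52 CPM and then 7.62 to 8.62 CPM, with DCN at 0.223 and 0.195 CPM and THY1 at 0.283 and 0.257 CPM. In HT1197 it was 54.9 to 57 CPM and then 73.7 to 77.8 CPM, and in 639V 291 to 298 CPM and then 321 to 351 CPM. The mean of THY1 went from 0.302 to 4.97 CPM in HT1376 and from 0.265 to 6.45 CPM in T24. It went from 15.1 to 29.4 CPM in KU1919 and from 287 to 317 CPM in 639V. In HT1197 FAP went from 4.03 to 3.61 CPM and PDGFRB from 1.36 to 1.31 CPM, while the other genes of the list were higher. In SW780 and TCCSUP the ranges overlapped. DCN stayed at or below 1.18 CPM in every line but TCCSUP, and the part of these markers in the collagen changes was not tested.

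FACIT chains gave 23 higher and 6 lower calls in 49 tests, beside 18.8% higher and 13.8% lower over all genes, with a median of 0.43. The lower calls lay near the share of all genes. COL12A1 (chromosome 6, 75084326 to 75206051), the FACIT chain with the highest level per kb in every line except KU1919, had log2 fold changes between -0.38 and 0.59. It rose in 639V, from 121, 112 and 122 CPM to 196, 153 and 186 CPM, and fell in SW780, from 444, 455 and 409 CPM to 323, 351 and 353 CPM. It also fell in HT1197, from 126, 126 and 122 CPM to 106, 118 and 106 CPM (-0.16 ± 0.04, edgeR adjusted p = 0.0164), and in TCCSUP, from 1029, 1135 and 1068 CPM to 945, 968 and 811 CPM (-0.21 ± 0.07, adjusted p = 0.0304).

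The calls in HT1197 and TCCSUP were weak. That in HT1197 was lost without replicate 1 or 2 of DMSO or replicate 1 or 3 of CPI-0209, on library totals alone and in the fit of all 48 libraries. That in TCCSUP was lost without replicate 2 or 3 of DMSO or replicate 1 or 3 of CPI-0209, and the calls in SW780 and TCCSUP were lost in the fit of all 48 libraries (adjusted p = 0.178 and 0.376). In KU1919 COL12A1 held 31.1, 31.5 and 31.4 CPM and then 20.8, 47.4 and 51.5 CPM, and in T24 387, 292 and 410 CPM and then 564, 542 and 313 CPM. The library that stood apart lay below the other treated libraries in both, and without it the gene was called higher in KU1919 (0.69, adjusted p = 6.70e-07 by edgeR) and in T24 (0.65, adjusted p = 0.035). The T24 fit kept replicate 2 of DMSO, the lowest of its group at 292 CPM. HT1376 gave a call only without replicate 1 of DMSO (-0.51) or with DESeq2 (-0.37), and VMCUB only without replicate 3 of DMSO (0.53).

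COL14A1, another chain at fibril surfaces, rose in 3 of 7 lines. It went from 1.53, 1.94 and 1.5 CPM to 13.3, 12.6 and 12.9 CPM in TCCSUP (3.0 ± 0.11), from 0.683, 0.407 and 0.233 CPM to 1.23, 1.37 and 1.77 CPM in HT1197 (1.71 ± 0.30), and by 3.73 ± 0.29 in 639V. HT1376, with the highest DMSO level at 11.3 CPM, gave -0.02 and no call. COL16A1 rose in 5 of 8 lines, by 3.02 ± 0.13 in HT1376 (2.21, 1.66 and 1.62 CPM to 14.5, 16.3 and 13.3 CPM) and by 0.42 to 1.21 in SW780, 639V, TCCSUP and VMCUB. Its call in 639V was lost with DESeq2, and that in VMCUB without replicate 1 of DMSO or replicate 1 or 2 of CPI-0209. COL21A1 rose in the 3 lines where it was tested, HT1376, KU1919 and TCCSUP, by 1.60 to 2.09. In KU1919 it had 12 counts in DMSO and 48 after CPI-0209, so the treated group carried it past the filter.

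The type IX chains, which coat cartilage fibrils, did not move together. COL9A2 rose in 6 lines, from 1.29, 1.32 and 1.18 CPM to 3.35, 3.40 and 3.36 CPM in T24 (1.43 ± 0.14), and fell in SW780 from 4.27, 3.62 and 4.53 CPM to 2.58, 2.43 and 1.94 CPM (-0.86 ± 0.13). Its call in HT1376 was lost with RLE size factors, DESeq2, no filter or the replicate block and without any 1 library except replicate 1 of DMSO. The call in KU1919 was lost without any DMSO library or replicate 2 of CPI-0209, and that in 639V with DESeq2. COL9A3 rose in KU1919 and VMCUB and fell in 639V (-0.42 ± 0.10) and in TCCSUP, where it went from 2.88, 2.29 and 2.03 CPM to 1.78, 0.704 and 1.08 CPM (-0.92 ± 0.27, edgeR adjusted p = 0.0153). That call was lost without replicate 3 of CPI-0209 (adjusted p = 0.0684), and the one in 639V in the fit of all 48 libraries. The call of COL9A3 in KU1919 was lost without replicate 2 or 3 of DMSO. In VMCUB it was lost with RLE size factors, DESeq2, no filter, the replicate block or the fit of all 48 libraries, and without any 1 library except replicate 2 of DMSO. COL9A1 had 3 counts over the DMSO libraries of 639V and 227 after CPI-0209, a ratio of 59.7 with a 95% counting interval of 20.2 to 291, and 1 and 37 counts in TCCSUP, a ratio of 33.5 (5.66 to 1360). The neighbouring COL19A1 was called in none of the 4 lines in which it was tested.

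COL7A1, the anchoring fibril chain, rose in 6 of 8 lines, by 0.18 ± 0.05 in HT1376 to 0.88 ± 0.13 in TCCSUP. Its 3 libraries went from 342, 291 and 327 CPM to 533, 546 and 562 CPM in SW780. T24 (0.45) and VMCUB (-0.16) gave no call. In VMCUB it held 371.7, 312.8 and 473.4 CPM and then 346.4, 333.7 and 321.1 CPM, and without replicate 2 of DMSO it was called lower. In T24 it was called higher without replicate 3 of CPI-0209 and in the fit of all 48 libraries. The call in HT1376 was lost with no filter, with the replicate block, in the fit of all 48 libraries and without replicate 2 or 3 of DMSO or replicate 1 or 3 of CPI-0209. That in HT1197 was lost in the fit of all 48 libraries, and that in KU1919 without replicate 3 of DMSO. The range over the 8 lines was narrower than that of any type VI chain.

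The chains of hexagonal networks, types VIII and X, gave 9 higher and 0 lower calls in 15 tests. COL8A2 rose in 5 lines: in T24 it went from 0.494, 0.347 and 0.490 CPM to 5.58, 5.62 and 5.29 CPM (3.65 ± 0.19, edgeR adjusted p = 0.000175), the member of T24 with the smallest p. In VMCUB it went from 0.444, 0.797 and 0.708 CPM to 2.68, 3.25 and 2.95 CPM. KU1919, which had the highest DMSO level at 43.4 CPM, gave 0.22 and no call. COL8A1 rose in 4 lines, from 4.24, 4.27 and 4.03 CPM to 19.5, 15.8 and 15.8 CPM in TCCSUP (2.07 ± 0.10) and from 1.44, 1.29 and 1.12 CPM to 2.87, 2.69 and 2.89 CPM in KU1919. T24, where it stood at 117 CPM, gave 0.07 and no call. COL10A1, of the same class, was tested in SW780 alone and was not called.

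COL18A1 (chromosome 21, 45405137 to 45513720), the multiplexin whose end fragment is endostatin, moved in both directions. In HT1376 it rose from 4.61, 5.86 and 6.51 CPM to 60.2, 60.9 and 58.5 CPM (3.43 ± 0.10), and it also rose in 639V (1.61 ± 0.14) and SW780 (1.60 ± 0.17). In VMCUB it fell from 5.87, 8.45 and 5.35 CPM to 3.20, 3.28 and 3.40 CPM (-0.94 ± 0.17), and in TCCSUP from 88.3, 104 and 93.1 CPM to 78.6, 80.9 and 76.3 CPM (-0.24 ± 0.06), a call lost in the fit of all 48 libraries (adjusted p = 0.455). KU1919 held 8.87, 8.11 and 7.03 CPM and then 35.6, 10.2 and 10.8 CPM. The high value was that of the library that stood apart, and without it the log2 fold change went from 1.21 to 0.41 and was called (adjusted p = 0.0054 by edgeR).

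COL15A1, the other multiplexin, rose in HT1197, KU1919 and TCCSUP and had log2 fold changes between 1.00 and 1.77 in the 6 lines tested. In TCCSUP it went from 7.24, 8.12 and 8.11 CPM to 25.3, 27.5 and 22.5 CPM, and no interaction between lines was called (adjusted p = 0.251 by edgeR). Its shared log2 fold change was 1.17 ± 0.18. The call in HT1197 was lost with DESeq2, in the fit of all 48 libraries and without replicate 1 or 3 of DMSO or replicate 1 or 3 of CPI-0209.

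The transmembrane chain COL13A1 rose in T24 from 22.4, 20.4 and 22.1 CPM to 44.4, 42.9 and 41.7 CPM (1.01 ± 0.09), and in HT1376 and HT1197, and fell in TCCSUP (-0.37 ± 0.07). COL25A1 rose in KU1919, from 1.35, 1.47 and 1.29 CPM to 2.74, 4.13 and 3.55 CPM. COL23A1 rose in KU1919 (2.04 ± 0.40) and SW780 (2.53 ± 0.39), and in HT1376, where it was not tested, it had 0 counts in DMSO and 45 after CPI-0209, at least 17.4-fold higher with 3 counts over the whole group taken as the floor. COL26A1 had 3 counts in DMSO and 263 after CPI-0209 in HT1376, a ratio of 101 (95% counting interval 34.3 to 495), and rose also in KU1919 and 639V. COL22A1 rose in KU1919 (0.75 ± 0.13), and COL28A1 was called in none of its 6 lines. In KU1919 the calls of COL23A1 and COL26A1 were lost without any 1 DMSO library, that of COL26A1 also without replicate 2 or 3 of CPI-0209, and that of COL22A1 without replicate 1 or 2 of DMSO. The call of COL13A1 in HT1197 was lost with DESeq2, in the fit of all 48 libraries and without replicate 2 of DMSO or replicate 2 or 3 of CPI-0209.

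The genes that process collagen chains were read from lists beside the members. In the shared response, 2 of 20 modification and folding genes rose, COLGALT2 (1.22 ± 0.21) and P3H3 (1.48 ± 0.41), and P4HA1, a prolyl hydroxylase subunit, fell (-0.32 ± 0.07), with a median of -0.02. Over all genes 7.31% rose and 4.41% fell, so this list lay near the background. In SW780 11 of the 20 rose and 8 fell, beside 30.8% and 30.3% of all genes, and in TCCSUP 7 rose and 5 fell, beside 25.7% and 23.0%. Of the 8 genes for trimming procollagen, 2 rose in the shared response. ADAMTS2, the protease that removes the amino end of procollagen, rose in 8 of 8 lines (shared 2.88 ± 0.49, edgeR adjusted p = 0.0157), and ADAMTS14 in 5 of 6. Of the 5 crosslinking genes, LOXL1 (1.13 ± 0.27) and LOXL3 (0.37 ± 0.09) rose.

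Of 6 tested collagen-degrading proteases, 3 rose in the shared response: MMP9 (2.13 ± 0.31), MMP1 (2.00 ± 0.52) and MMP13 (1.86 ± 0.42). Of 8 collagen receptors, the integrin chain ITGA11 rose (0.92 ± 0.23). The fibril-associated proteoglycan genes BGN (1.77 ± 0.47) and FMOD (1.69 ± 0.36) rose, 2 of 6. Several of these calls lay near the threshold: by edgeR the adjusted p was 0.0409 for MMP1, 0.0416 for ADAMTS14, 0.0437 for BGN and 0.0464 for P3H3. Whether the calls of the listed genes held with a line left out is not given here. These lists are small, and differences between them were not tested.

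CpG content before the RefSeq start site went with the shared response only loosely. Over 28 members with both values, Spearman's rho between CpG count and shared log2 fold change was 0.36, and over 12719 genes it was -0.1. These are correlations across genes, which are not independent replicates, and some members share a promoter region. COL4A5 with 8 CpG and COL4A6 with 7 had shared changes of 0.15 and 0.19, COL15A1 with 38 had 1.17 and COL6A2 with 28 had 1.26. COL6A3, with 3 CpG, had 1.58 ± 0.53 (adjusted p = 0.0766 by edgeR, not called), and COL4A2, with 40, had 0.30. Chains with few and with many CpG thus had both small and large changes.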

How the data were processed

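RNA from 48 samples was sequenced as paired-end reads, per the labels' protocols, which name both a TruSeq RNA kit and a strand-specific TruSeq protocol. The authors deposited whole-number counts per Ensembl gene, made with STAR 2.7.3a and RSEM 1.3.1 on hg38 per the submitters' processing notes. The annotation, any use of strand and how RSEM's estimates became whole counts are not given in the sources used here. Libraries were grouped by line and treatment from their labels.

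Counts were analysed with R 4.3.3 and edgeR 4.0.16 (TMM, filterByExpr, robust quasi-likelihood tests, Benjamini-Hochberg adjustment over all genes tested, threshold 0.05). The fits used the 6 libraries of each line, 16 sums for the shared response, all 48 libraries for the 7 interaction terms and the 24 DMSO libraries for levels. The SE of a log2 fold change was taken from its size and the F statistic (size over the root of F). Ratios of partner chains used a pseudocount of 0.5. Totals had a median of 41665645 counts, and mitochondrial genes took 1.75% to 6.18%. The fits were tested on simulated data, in which the interaction test missed part of the smaller changes placed in 1 line. Its recovery was then judged on larger changes. Alternatives were RLE size factors, library totals alone, no filter, DESeq2 1.42.0, a replicate block, a fit of all 48 libraries, and leaving out each library or line. Figures were drawn with matplotlib 3.10.9 from Python 3.11.15, and exact tests used scipy 1.17.1.

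In each line the naming rule took up to 4 higher and 2 lower members with the smallest p, changed at least 1.5-fold, with at least 1 CPM in the higher treatment and no overlap between groups, and for the shared response up to 6 members with the smallest p. COL1A1, COL3A1, COL4A1, COL4A2, COL6A1, COL6A2, COL12A1 and COL18A1 were always named, and members given beyond these complete the account of the 41. Members and lists were chosen with earlier results of these data known. One marker gene is not reported here.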

Additional observations from a re-analysis of the deposited data

Results flagged for a closer look

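In each of 32 members tested in at least 4 lines, the line with the highest or lowest log2 fold change was compared with the spread of the others, and chance alone marks about 1 in 20 such groups. COL6A1 in HT1376, at 5.52, and COL16A1 in HT1376, at 3.02, stood far above the other 7 lines tested. COL19A1 in KU1919, at -0.41, stood below the other 3 lines tested and was not called there.

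The response to CPI-0209 differed between lines for 35 members by edgeR's F test of the interaction terms. That test called 58.7% of all genes. In 9 of the 35 the gene was called higher in at least 1 line and lower in at least 1 other. How many of all genes were called in both directions was not counted. COL3A1 rose in HT1197, SW780 and TCCSUP and fell in HT1376 and 639V (interaction adjusted p = 6.72e-21). COL1A2 rose in HT1197, TCCSUP and VMCUB and fell in HT1376 (9.59e-10). COL4A3 (1.35e-09) and COL4A4 (6.97e-12) rose in SW780, 639V and TCCSUP and fell in HT1376. The fall of COL4A4 in HT1376 was lost with the replicate block, in the fit of all 48 libraries and without any 1 library except replicate 1 of DMSO. COL9A2 rose in 6 lines and fell in SW780 (4.07e-13), and COL9A3 rose in KU1919 and VMCUB and fell in 639V and TCCSUP (0.000422). COL12A1 rose in 639V and fell in HT1197, SW780 and TCCSUP (0.0133). COL18A1 rose in HT1376, SW780 and 639V and fell in TCCSUP and VMCUB (5.51e-09), and COL13A1 rose in HT1197, HT1376 and T24 and fell in TCCSUP (1.50e-08).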

How the results depend on the processing

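No member called in a line or in the shared response changed its direction under any alternative run. The number of members called moved by more than 1.5 times in 4 comparisons, and the cause was not tested. In HT1197 it was 13, and 7 in a fit of all 48 libraries. In KU1919 it was 14, and 7 to 26 with 1 library left out: 7 without replicate 1 or 3 of DMSO, 8 without replicate 2 of DMSO and 26 without replicate 1 of CPI-0209. In T24 it was 7, 17 in the fit of all 48 libraries and 6 to 13 with 1 library left out, the 13 without replicate 3 of CPI-0209. In the shared response it was 13, 7 with no filter, 22 with DESeq2 and 4 to 9 with 1 line left out: 9 without HT1197, 8 without HT1376 or KU1919, 7 without 639V or VMCUB and 4 without SW780, T24 or TCCSUP. With a line left out, the mean change of the COL1A1 to COL1A2 ratio was 0.74 to 1.17 and that of COL4A3 to COL4A4 was -0.88 to -0.51, with no call. That of COL4A1 to COL4A2 was 0.65 to 0.92 and lost its call whichever line was left out (adjusted p = 0.0781 by the exact permutation test), since 7 lines cannot pass the threshold for 1 pair alone. Of the values of single named genes under alternatives, 1192 kept their direction and side of the threshold, 44 lost a call, 13 gained one and 18 moved.

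On library totals alone, the share of higher calls among all genes called went from 60.3% to 75.6% in HT1197, 56.4% to 71.9% in 639V, 50.5% to 75.0% in SW780, 59.9% to 79.8% in VMCUB and 62.4% to 93.9% in the shared response. The split of the members in SW780 went from 20 higher and 2 lower to 21 and 2.

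The labels do not say what a replicate number shares. The correlation of deviations between libraries of the same number was -0.339 to 0.215, and no line had all 3 over 0.1. With 3 libraries per group this cannot show that they were unpaired. Over all genes the replicate block raised the calls in 639V (6322 to 7274), SW780 (10322 to 10618) and TCCSUP (7870 to 8169), and lowered them in the other lines. Libraries were not always most alike in deviation with those of their own number. With the replicate block, 13 members were called in HT1197, 17 in HT1376, 12 in KU1919, 22 in SW780, 7 in T24, 25 in 639V, 28 in TCCSUP and 12 in VMCUB, 31 differed in response and 36 in DMSO level. Depth limits chains with a few counts in DMSO, such as COL9A1 and COL26A1, whose ratios have wide counting intervals.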
